A study of Canis lupus familiaris with 18 samples.

Results

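The interleukin 6 (IL6) family was examined here through 9 genes in primary canine osteosarcoma, a bone-forming tumour: the ligands IL6, IL11, LIF and OSM, the receptor chains OSMR, LIFR and IL6ST, the transcription factor STAT3 and the feedback inhibitor SOCS3. All probe sets that the array's annotation gives to exactly 1 of these symbols were taken, which gave 14 of the 43035 probe sets on the array, for 9 of 15115 genes with a symbol of their own. IL6, IL11, LIF, OSM, OSMR and IL6ST had 1 probe set each, LIFR and SOCS3 had 2 each, and STAT3 had 4, called the first to the fourth here by their mean level. The probe set with the highest mean over all arrays stands for a gene below, unless another is named. The series held 18 tumours on 1 array each, 9 from dogs with a normal serum concentration of alkaline phosphatase (ALP) and 9 from dogs in which that enzyme was increased. All were snap-frozen primary tumours handled alike, no non-tumour tissue was included, and the labels give no age, breed, sex or treatment. The labels name each sample as a numbered piece of tumour tissue and speak of patients, but nothing states that each of the 18 came from a different dog, so that the p-values measure the spread between these samples.

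The cytokines of this family signal through receptor complexes that share the chain gp130, which is encoded by IL6ST. IL6 and IL11 first bind receptors of their own (IL6R, IL11RA), LIF pairs gp130 with LIFR, and OSM pairs it with OSMR or LIFR. The bound receptors activate JAK kinases, which phosphorylate STAT3. Phosphorylated STAT3 enters the nucleus and induces target genes, among them SOCS3, whose protein binds gp130 and the JAK kinases and dampens the signal. In bone, members of the family act on osteoblasts and, largely through osteoblasts and other stromal cells, on the formation of osteoclasts. The array measures RNA and shows neither cytokine protein nor phosphorylation.

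Levels are given as log2(signal + 16), computed from the deposited log2 signals. An offset of this kind pulls the values of dim probe sets together, so that a difference on this scale understates the change of a dim gene. The arrays had close distributions, with medians between 6.25 and 6.31 and pairwise correlations over all probe sets between 0.929 and 0.982. Of the 14 probe sets, 9 had a mean at or above the 40th percentile of all probe sets (6.15) and were tested with 25716 probe sets in all. These 9 covered IL6, IL11, OSMR, LIFR, STAT3 and SOCS3, while LIF, OSM, IL6ST, 1 probe set of STAT3 and 1 of SOCS3 lay below that level. The osteoblast genes COL1A1 (12.75 to 14.88) and SPARC (13.52 to 14.43) were high in all 18 tumours, whereas the bone-matrix gene IBSP ranged from 4.85 to 14.21. The skeletal muscle score, the mean deviation of 8 such genes from their means, was 3.45 in increased ALP replicate 4 and 5.24 in normal ALP replicate 1, and 1.21 or less in the others. The difference between the 3′ and middle probe sets for actin, a sign of RNA breakdown, was 0.371 to 0.481 (median 0.425) in the normal group and 0.433 to 1.15 (median 0.633) in the increased group.

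**Figure D1:**
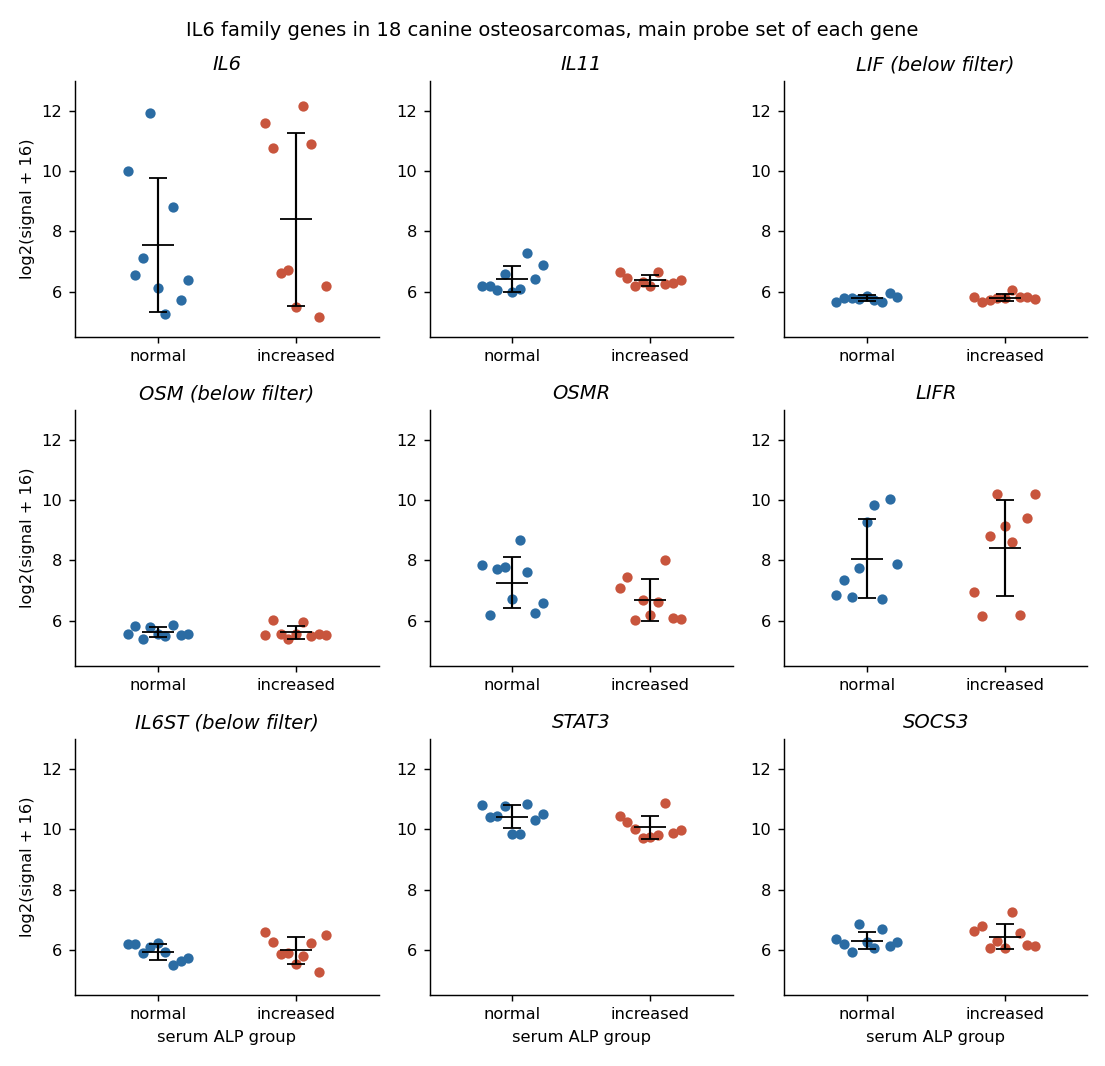
Level of each of the 9 genes at its main probe set, as log2(signal + 16), by serum ALP group. Each point is 1 tumour, and the black bar and whiskers are the mean ± SD over 9 tumours. IL6 spans 5.16 to 12.18 and LIFR 6.16 to 10.22, and in all 9 panels the points of the groups overlap.

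IL6, the inflammatory cytokine that gives the family its name, varied more between tumours than any other member. In the normal ALP group it ranged from 5.26 to 11.93 with a median of 6.56, and in the increased group from 5.16 to 12.18 with a median of 6.71. The groups covered nearly the same range, and high and low tumours occurred in both. The highest level belonged to increased ALP replicate 6 (12.18), followed by normal ALP replicate 4 (11.93) and increased ALP replicate 1 (11.62). Increased ALP replicate 8 (5.16) and normal ALP replicate 6 (5.26) were lowest. The highest deposited signal was 234 times the lowest, which is a ratio of signals and not of RNA amounts, since the lowest level lay under the filter and no detection call was available here to show it above background. The SD of 2.54 over the 18 tumours stood at the 99.9th percentile of the tested probe sets, whose median SD was 0.36. No tumour lay between 7.12 and 8.80, the largest gap in the order, with 11 tumours below it and 7 above. That gap made up 24.0% of the range. The mean was 7.55 ± 2.24 (SD, n = 9) in the normal group and 8.40 ± 2.88 (SD, n = 9) in the increased group. The increased group was higher by 0.86 ± 1.13 (SE; 95% interval -1.50 to 3.21), which did not pass the limma test over all tested probe sets (adjusted p = 0.917).

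The other ligands had narrow ranges. IL11, a cytokine that promotes osteoclast formation and bone turnover, ran from 5.99 through a median of 6.19 to 7.27 in the normal group and from 6.17 through 6.32 to 6.64 in the increased group. The group ranges overlapped, and normal ALP replicate 7 (7.27) and normal ALP replicate 9 (6.89) were the highest tumours. The difference was -0.04 ± 0.15 (SE; 95% interval -0.35 to 0.28, limma adjusted p = 0.981). LIF, which acts on osteoblast differentiation, lay below the filter at 5.64 to 5.96 (median 5.78) in the normal group and 5.65 to 6.04 (median 5.78) in the increased group. OSM, which is made mainly by macrophages, neutrophils and T cells, lay below it too, at 5.39 to 5.84 (median 5.55) and 5.38 to 6.04 (median 5.55). At this signal the arrays could not separate a low level of either cytokine from none, and their signals varied 1.46-fold (LIF) and 1.93-fold (OSM) over all tumours. Increased ALP replicates 2 (6.04) and 6 (5.95) had the highest OSM values. The ALP groups differed by 0.03 for LIF (exact permutation test, two-sided, p = 0.590) and by 0.01 for OSM (exact permutation test, two-sided, p = 0.954). LIF and OSM are neighbouring genes in the dog reference annotation with 0 entries between them, and their levels had r = -0.06 over the 18 tumours.

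Among the receptors, LIFR, the chain through which LIF signals, varied most. Its level ran from 6.73 through a median of 7.76 to 10.05 in the normal group and from 6.16 through 8.80 to 10.22 in the increased group. The ranges overlapped almost entirely. Increased ALP replicates 9 and 4 and normal ALP replicate 8 were highest, and increased ALP replicates 2 and 7 were lowest. The deposited signal varied 21.2-fold, and the SD of 1.44 was at the 98.8th percentile of the tested probe sets. The second LIFR probe set followed the first with r = 0.986. The group difference was 0.35 ± 0.64 (SE; 95% interval -0.996 to 1.70, limma adjusted p = 0.943) at the first and 0.28 ± 0.60 (SE; adjusted p = 0.952) at the second. Both differences turned to -0.03 and -0.09 without the 2 tumours of high skeletal muscle genes.

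OSMR, the signalling chain of the oncostatin M receptor, ran from 6.18 through a median of 7.61 to 8.67 in the normal group and from 6.03 through 6.62 to 8.01 in the increased group. Normal ALP replicate 6 (8.67) and increased ALP replicate 7 (8.01) were highest, and 7 of the 9 tumours of the increased group lay below the normal mean. The mean was 7.26 ± 0.86 (SD, n = 9) in the normal group and 6.69 ± 0.70 (SD, n = 9) in the increased group. The difference of -0.57 ± 0.34 (SE; 95% interval -1.29 to 0.15) did not pass the test (limma adjusted p = 0.850). IL6ST, the shared gp130 chain, lay below the filter at 5.47 to 6.21 (median 5.94) in the normal group and 5.26 to 6.57 (median 5.88) in the increased group. The groups overlapped and differed by 0.06 (exact permutation test, two-sided, p = 0.734). Most cell types are known to express gp130, and whether this probe set reads its transcript well was not tested. OSMR and LIFR lie on the same chromosome with 5 annotated entries between them, and their levels had r = -0.49, which did not pass the test of pairs described below.

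STAT3, the transcription factor that the receptors activate, was lower in the increased ALP group at all 4 of its probe sets, but no difference passed adjustment over all tested probe sets. At its first and main probe set it ran from 9.84 through a median of 10.44 to 10.86 in the normal group and from 9.71 through 9.97 to 10.86 in the increased group. Increased ALP replicate 7 shared the top of the order with normal ALP replicates 7 and 1, so that the groups overlapped over nearly their whole range. Of the 9 tumours of the increased group, 8 lay below the normal median and 7 below the normal mean. The difference there was -0.35 ± 0.18 (SE; 95% interval -0.72 to 0.03, limma adjusted p = 0.833). At the third the level ran from 7.94 through 8.19 to 8.65 in the normal group and from 6.81 through 7.60 to 8.43 in the increased group. At this probe set 8 of the 9 tumours of the increased group lay below the normal mean, and increased ALP replicate 7 lay above it. The mean was 8.21 ± 0.26 (SD, n = 9) in the normal group and 7.56 ± 0.51 (SD, n = 9) in the increased group, a difference of -0.65 ± 0.19 (SE; 95% interval -1.04 to -0.26). Its unadjusted limma p was 0.0025, its exact two-sided permutation p 0.0037 and its limma adjusted p 0.608. No tested probe set had a smaller adjusted p, but the adjustment can give the same value to many probe sets. The value therefore does not place this probe set first by p. The difference at the second was -0.53 ± 0.19 (SE; exact permutation test, two-sided, p = 0.0176, limma unadjusted p = 0.0129 and adjusted p = 0.685). The fourth, which was dim, differed by -0.33 ± 0.14 (SE; exact permutation test, two-sided, p = 0.0335). The 4 probe sets are annotated to the same gene and do not count as 4 results, and their levels correlated with each other between 0.592 and 0.928. Whether all 4 read the same transcripts was not tested. With the actin difference as a covariate, the STAT3 differences were -0.42, -0.54, -0.41 and -0.17 from the first probe set to the fourth.

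SOCS3, the feedback inhibitor induced by STAT3, ran from 5.93 through a median of 6.24 to 6.86 in the normal group and from 6.06 through 6.30 to 7.26 in the increased group. The groups overlapped. Increased ALP replicate 6 (7.26), normal ALP replicate 4 (6.86) and increased ALP replicate 2 (6.79) were highest, and the first and second of them were also the tumours of highest IL6. The difference was 0.13 ± 0.16 (SE; 95% interval -0.20 to 0.47, limma adjusted p = 0.911). The second SOCS3 probe set lay below the filter, followed the first with r = 0.895 and differed by 0.10 (exact permutation test, two-sided, p = 0.331).

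Over the whole family, 0 of the 9 tested probe sets passed an adjusted p of 0.05 between the ALP groups in limma, as did 0 of all 25716 tested (0%). At an unadjusted p under 0.05 there were 2 of 9, both lower in the increased group and both of STAT3, beside 6.14% of all tested probe sets (4.23% lower and 1.91% higher). That split between directions moved with the processing: 1087 were lower and 492 higher here, 890 and 696 under scaling to the 75th percentile, 1329 and 1288 without the filter, and 464 and 425 with the actin difference as a covariate. Of the 9 tested probe sets 4 were higher and 5 lower in the increased group, with a median difference of -0.04, and the median over all tested probe sets was 0.01. The intervals for IL6 and LIFR were wide, and differences of more than 1 on the log2 scale in either direction for IL6, and upward for LIFR, lay inside them.

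**Figure D2:**
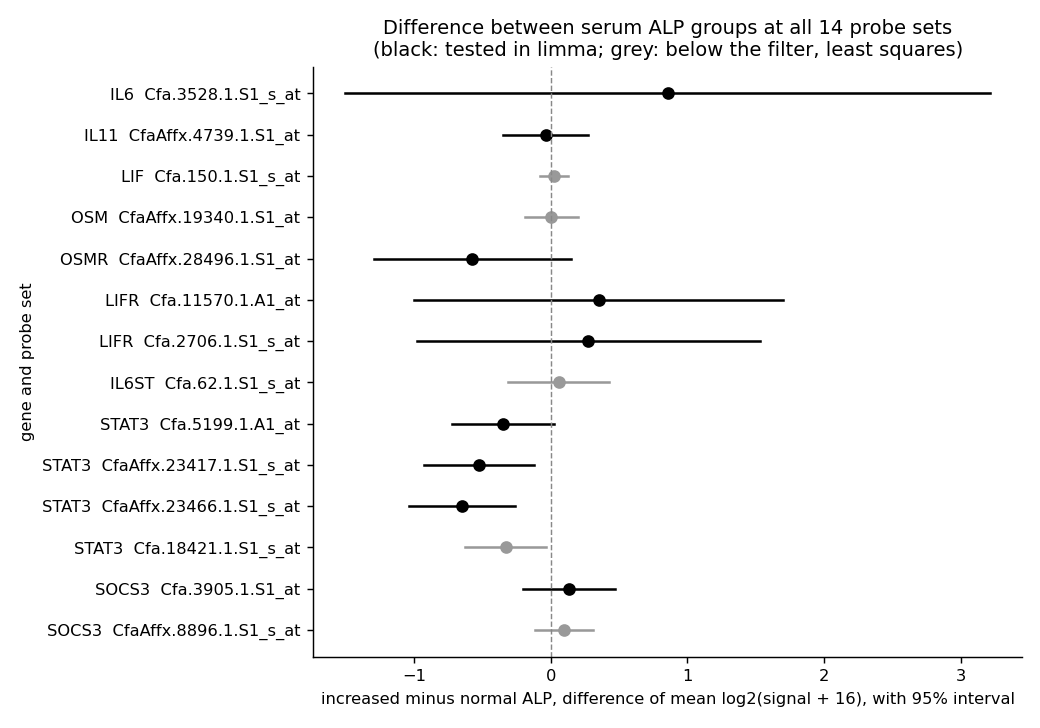
Difference between the increased and normal ALP groups at all 14 probe sets, as the difference of mean log2(signal + 16) with its 95% interval (n = 9 a group). Black points were tested in limma, and grey points lay below the filter and were fitted by least squares. The STAT3 probe sets are listed from the first to the fourth and lie to the left of 0, from -0.33 to -0.65, and the IL6 interval runs from -1.50 to 3.21.

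Some members varied together across tumours. All 36 pairs of the 9 genes were compared by Pearson's r over the 18 tumours, with a two-sided permutation test of 100000 resamples and Benjamini-Hochberg adjustment over the 36 pairs. In these pairs 23 coefficients were positive, and 4 pairs passed an adjusted p of 0.05: IL6 with SOCS3, OSM with SOCS3, LIFR with STAT3 and IL6 with LIFR. A coefficient of at least the size of the smallest of these occurred in 1.91% of the 96366 relations of the 9 genes with all tested genes. That share pools all 9 genes, and large coefficients were more common for some of them. The middle 95% of coefficients with all tested genes ran from -0.676 to 0.678 for LIFR and from -0.613 to 0.642 for IL6. For LIF it ran from -0.454 to 0.539.

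IL6 and SOCS3 rose together, with r = 0.876 over 18 tumours (permutation p = 1e-05, the smallest that 100000 resamples can give, adjusted p = 0.00036) and rho = 0.763 (permutation p = 0.00034, adjusted p = 0.0122). The coefficient was 0.821 within the normal and 0.901 within the increased ALP group, and 0.833 without the 2 tumours farthest from the IL6 median. All 7 tumours above the gap in IL6 had SOCS3 levels of 6.37 or more, and the 11 below it had 6.30 or less. Within the 7 tumours above the gap r was 0.574, and within the 11 below it r was 0.016, so that the relation rests on the difference between these sets of tumours and on the spread among those of high IL6. SOCS3 was dim in the 11 tumours, at 5.93 to 6.30 around the filter level of 6.15. The low coefficient there may reflect signals too dim to resolve and does not show that a relation is absent. Among 10707 tested genes SOCS3 ranked as number 5 by its correlation with IL6, and IL6 ranked as number 1 for SOCS3. The second SOCS3 probe set had r = 0.847 with IL6. With the actin difference regressed out of both genes r was 0.860.

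OSM and SOCS3 had r = 0.722 (permutation p = 0.00117, adjusted p = 0.014), while rho was 0.527 (permutation p = 0.0264) and did not pass adjustment (adjusted p = 0.189). The coefficient was 0.767 in the normal and 0.714 in the increased ALP group. OSM lay below the filter, and 5 tumours stood above the largest gap in its order (36.4% of its range). Within the other 13 tumours r was 0.119, and without the 2 tumours farthest from the OSM median, increased ALP replicates 2 and 6, it was 0.526. The relation therefore rests on the tumours of highest OSM. The second SOCS3 probe set gave 0.529.

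LIFR and STAT3 varied in opposite directions, with r = -0.775 (permutation p = 0.00042, adjusted p = 0.00756) and rho = -0.713 (permutation p = 0.00128, adjusted p = 0.023). The coefficient was -0.779 in the normal group, -0.836 in the increased group, and -0.800 without the 2 tumours farthest from the LIFR median. The LIFR values fell into 9 tumours of 7.89 or less and 9 of 8.62 or more, and within these sets r was 0.015 and 0.223. The tumours of high LIFR mostly had lower STAT3 than those of low LIFR, although normal ALP replicate 8, of high LIFR, had a STAT3 level of 10.31 and increased ALP replicate 2, of low LIFR, one of 10.25. Among 10707 tested genes, LIFR was number 10 from the lowest by its correlation with STAT3. The coefficient weakened at the other STAT3 probe sets, to -0.650 at the second, -0.469 at the third and -0.382 at the fourth. The second LIFR probe set gave -0.744 with the main STAT3 probe set.

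IL6 and LIFR had r = -0.656 (permutation p = 0.00449, adjusted p = 0.0404) and rho = -0.657 (permutation p = 0.00424, adjusted p = 0.0409). The coefficient was -0.591 in the normal and -0.760 in the increased group, and -0.806 without the 2 tumours of highest IL6. It was -0.555 within the 11 tumours below the IL6 gap and 0.578 within the 7 above it, so that the pooled value does not describe the tumours of high IL6. In that set increased ALP replicate 6 and normal ALP replicate 4 combined the highest IL6 with LIFR levels of 8.62 and 7.76. Among 10707 tested genes LIFR was number 162 from the lowest by its correlation with IL6, and IL6 was number 320 from the lowest for LIFR. The call also depended on single arrays: it was lost when any 1 of 11 arrays was left out, namely replicates 1, 5 and 8 of the normal group and all of the increased group but replicate 6, with r between -0.658 and -0.618 and adjusted p-values up to 0.0866.

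**Figure D3:**
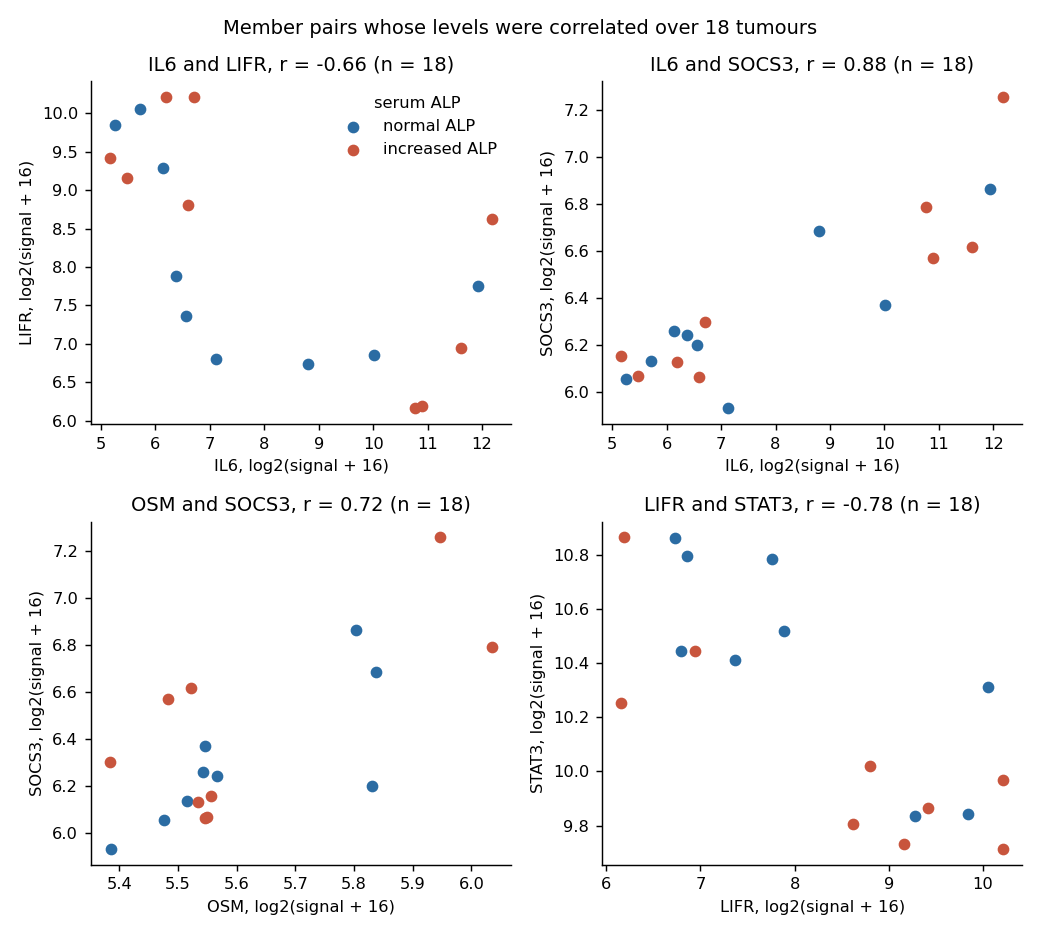
The 4 pairs that passed the test of pairs, each axis as log2(signal + 16) at the main probe set, with 1 point per tumour coloured by ALP group. The 7 tumours of high IL6 hold the highest SOCS3 values (r = 0.88), STAT3 is mostly lower in the tumours of high LIFR, with some overlap (r = -0.78), and both ALP groups occur in each cloud.

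SOCS3 was set against the remaining members as well. Its coefficient was 0.557 with IL11 (adjusted p = 0.12), 0.269 with STAT3, -0.410 with LIFR, 0.246 with OSMR, 0.187 with LIF and 0.173 with IL6ST, and none of these passed. At the second, the third and the fourth of the STAT3 probe sets the coefficient with SOCS3 was 0.157, 0.0005 and -0.0088. IL6 and STAT3 had r = 0.51, which did not pass either.

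**Figure D4:**
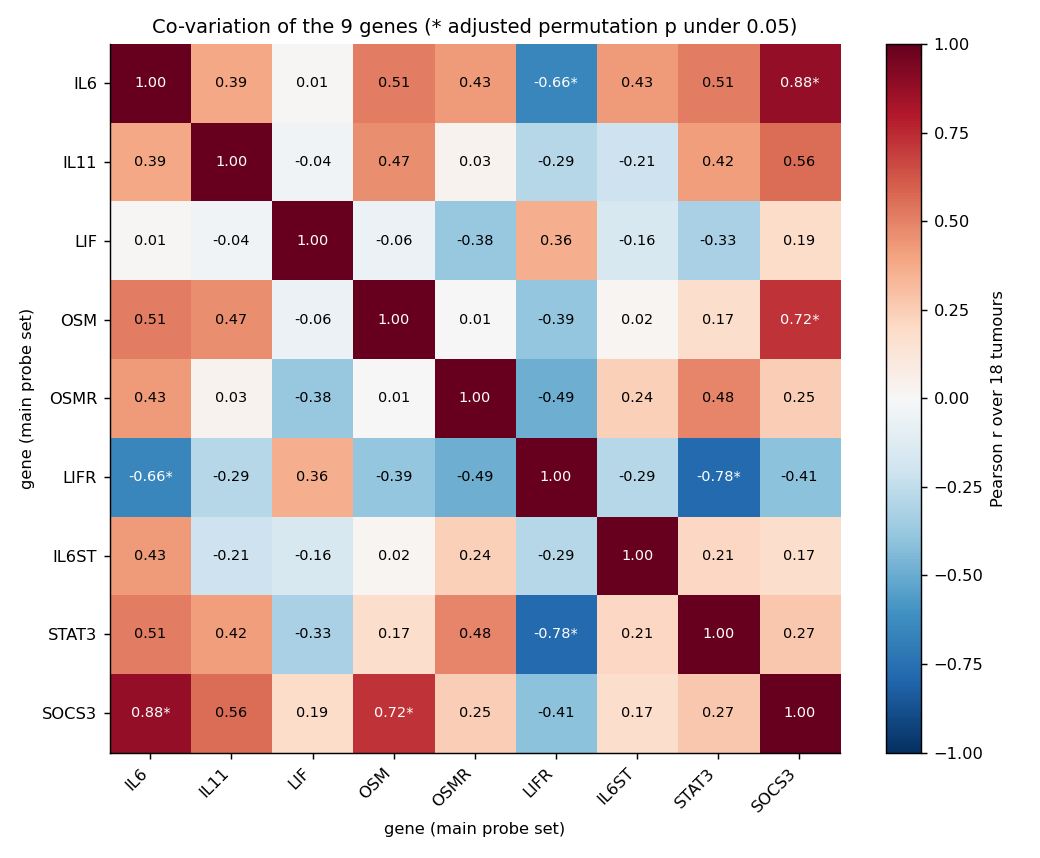
Pearson's r over 18 tumours for all 36 pairs of the 9 genes, from -1 in blue to 1 in red, with an asterisk where the adjusted permutation p was under 0.05. The SOCS3 row is highest at IL6 (0.88) and OSM (0.72), and the LIFR row is lowest at STAT3 (-0.78) and IL6 (-0.66).

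The levels of the members were then set against summed marker genes of the cell types a tumour piece can hold. Each score is the mean, over the tested markers of a list, of the deviations of log2(signal + 16) from the gene's mean. Markers below the filter or without a probe set of their own were left out. The 9 genes were related to 10 such scores and to both RNA quality measures, 108 relations in all, adjusted together, and 5 passed. LIFR, which takes part in several of them, varied with many genes. In the regression on its level given below, 6.40% of all tested probe sets passed. In bulk tissue fewer cells of a type and less RNA per cell cannot be told apart, and some markers are also expressed by the tumour cells themselves.

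LIFR followed the osteoblast score (11 of 13 markers tested) with r = 0.889 (permutation p = 2e-05, adjusted p = 0.00216) and rho = 0.893 (permutation p = 1e-05, adjusted p = 0.00108). Within the ALP groups r was 0.779 and 0.962, and within the tumours below and above the LIFR gap it was 0.893 and 0.484. LIFR also followed the osteoclast score (5 of 10 markers) with r = 0.836 (permutation p = 4e-05, adjusted p = 0.00216) and rho = 0.816 (permutation p = 8e-05, adjusted p = 0.00324), and within the sets of low and high LIFR r was 0.798 and 0.873. It ran against the fibroblast score (10 of 10 markers) with r = -0.803 (permutation p = 0.00018, adjusted p = 0.00486) and rho = -0.825 (permutation p = 9e-05, adjusted p = 0.00324). There the coefficient was -0.574 within the tumours of low LIFR and -0.286 within those of high LIFR. The order was not strict: normal ALP replicate 9 had the highest osteoclast score (1.74) with an LIFR level of 7.89, and increased ALP replicate 6, with an LIFR level of 8.62, lay below 0 on both scores. DMP1, a matrix protein of osteocytes and a member of the osteoblast list, was among the 3 genes most like LIFR (r = 0.912), beside SLC1A2 (0.912), a glutamate transporter, and UBR4 (0.910), a ubiquitin ligase.

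OSMR and STAT3 rose with the fibroblast score. OSMR had r = 0.820 (permutation p = 6e-05, adjusted p = 0.00216) and rho = 0.752 (permutation p = 0.00061, adjusted p = 0.0132), with 0.796 and 0.875 within the normal and increased groups. Without the 2 tumours farthest from the OSMR median r was 0.894, and without normal ALP replicate 6 alone it was 0.912. STAT3 had r = 0.746 (permutation p = 0.00068, adjusted p = 0.0147) and rho = 0.759 (permutation p = 0.00047, adjusted p = 0.0127), with 0.598 and 0.901 within the groups, 0.474 within the 14 tumours below the largest gap in STAT3, and 0.688 without the 2 farthest tumours. This last relation was lost without the 2 tumours of high skeletal muscle genes (r = 0.679, adjusted p = 0.0920). The fibroblast score had a median of 0.201 in the normal and -0.305 in the increased ALP group, with ranges of -0.572 to 0.823 and -0.817 to 0.988. It thus moved in the same direction as OSMR and STAT3 between the groups, and its part in those differences was not tested.

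IL6 had positive coefficients with the fibroblast score (0.685, adjusted p = 0.0506) and the smooth muscle and pericyte score (0.636, adjusted p = 0.0771), and a negative one with the osteoblast score (-0.592, adjusted p = 0.129), none of which passed by Pearson's r. Nor did STAT3 with the osteoblast score (-0.627, adjusted p = 0.0894) or LIFR with the smooth muscle and pericyte score (-0.618, adjusted p = 0.0902). By rank, IL6 passed with the smooth muscle and pericyte score (rho = 0.719, permutation p = 0.00108, adjusted p = 0.0194) and with the endothelial score (rho = 0.697, permutation p = 0.00187, adjusted p = 0.0289), where Pearson's r was 0.547 (adjusted p = 0.18). OSM had its highest coefficients with the neutrophil (0.516) and macrophage (0.510) scores, and SOCS3 with the macrophage (0.468) and neutrophil (0.465) scores, without passing the test. The neutrophil score was highest in increased ALP replicates 3, 6 and 2, of which 6 and 2 were also those of highest OSM, and increased ALP replicate 2 had the second highest macrophage score (1.08). The part of these cells in the relation of OSM with SOCS3 was not tested.

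**Figure D5:**
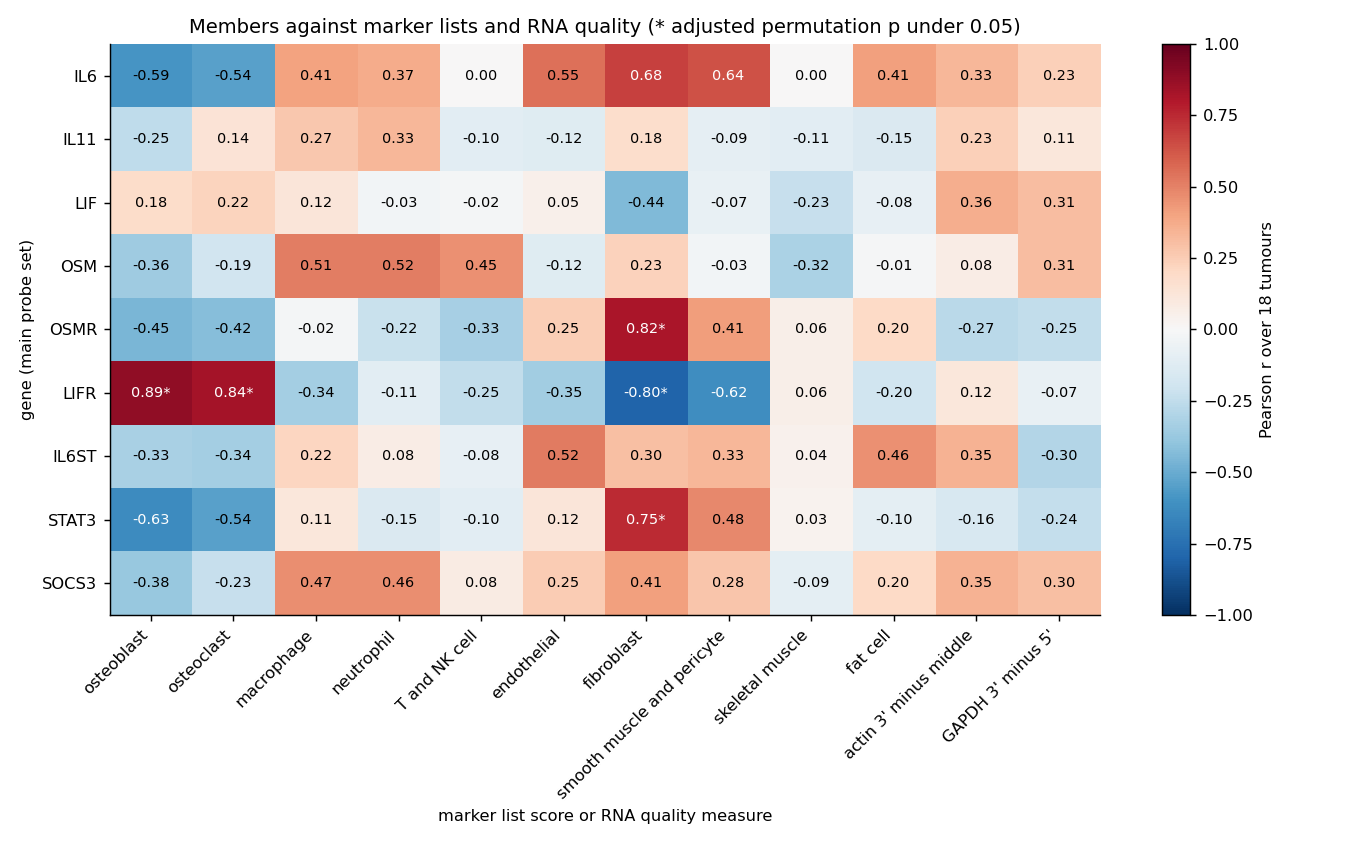
Pearson's r over 18 tumours of each gene with 10 marker list scores and 2 RNA quality measures, from -1 in blue to 1 in red, with an asterisk where the adjusted permutation p was under 0.05. LIFR is positive with the osteoblast (0.89) and osteoclast (0.84) scores and negative with the fibroblast score (-0.80), and OSMR and STAT3 are positive with the fibroblast score (0.82 and 0.75).

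The genes most like each member were named by their Pearson's r over the 18 tumours among 10707 tested genes, as a description. For IL6 they were ELL (0.924), an elongation factor of RNA polymerase II, NFIL3 (0.898), a transcription factor induced by cytokines, and IL3RA (0.893), the alpha chain of the interleukin 3 receptor. For SOCS3 they were IL6 itself (0.876), ADM (0.874), which encodes the vasodilator adrenomedullin, and CASP10 (0.872), a caspase of the death receptor pathway. STAT3 was most like ARNTL2 (0.864), a clock transcription factor, FOXP1 (0.846), a forkhead transcription factor, and DSEL (0.843). OSMR was most like MTG1 (0.842), MMP23 (0.836) and VCAN (0.829), which encodes the matrix proteoglycan versican. IL11 was most like LY96 (0.816), the co-receptor of TLR4, C28H10orf90 (0.799) and NAV2 (0.790).

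To place the pairs among all genes, every tested probe set was regressed on the level of each tested member in limma. On IL6, 720 of 25715 probe sets passed an adjusted p of 0.05 (2.80%, with 1.61% positive and 1.19% negative). SOCS3 was among the positive ones (adjusted p = 0.0022), and both LIFR probe sets were among the negative ones (adjusted p = 0.0499 and 0.0455). On SOCS3 only 14 probe sets passed (0.0544%, with 0.0506% positive and 0.00389% negative), IL6 among them (adjusted p = 0.0031). On LIFR 1645 passed (6.40%, with 3.30% positive and 3.10% negative), among them IL6 (adjusted p = 0.0295) and STAT3 at its main probe set (adjusted p = 0.00984) and at its second (adjusted p = 0.0455). On STAT3 60 passed (0.233%, with 0.167% positive and 0.0661% negative), and LIFR was among them at its main probe set (adjusted p = 0.0429) but not at the second (adjusted p = 0.051). On OSMR 6 passed (0.0233%) and on IL11 0 passed (0%), in neither case with another member among them.

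The wider pathway was described through 5 lists with 63 genes, of which 46 were tested. Between the ALP groups 29 of them were higher and 17 lower in the increased group, where 51.5% of all tested probe sets were higher. Of the 46 genes, 0 passed adjustment and 2 had an unadjusted p under 0.05 (6.14% of all tested probe sets). Those 2 were PIAS1, an inhibitor of STAT signalling, with a difference of 0.30 ± 0.12 (SE; limma unadjusted p = 0.0175, adjusted p = 0.719), and TNF, an inflammatory cytokine, with 0.20 ± 0.09 (SE; unadjusted p = 0.0442, adjusted p = 0.809). All 8 tested inflammatory genes induced with IL6 were higher in the increased group, with a median difference of 0.20 beside 0.01 over all tested probe sets. The neutrophil score (mean -0.350 in the normal and 0.350 in the increased group), the fat cell score (-0.370 and 0.370) and the actin difference (0.430 and 0.715) were higher in the same group, and their part in the shift was not tested. None of the 8 genes passed. Their differences ran from 0.04 ± 0.32 (SE) for NFKBIZ to 0.52 ± 0.95 (SE) for CXCL8. PTGS2, the prostaglandin synthase also known as COX-2, differed by 0.50 ± 0.87 (SE). All 8 correlated positively with IL6 across tumours, so that their shared direction does not count as 8 separate results. Of the 6 tested ligands and receptors, 5 were higher and 1 lower, and the 4 named by the smallest p differed by 0.07 (CNTFR) to 0.18 (EBI3). The IL6 receptor IL6R differed by 0.10 ± 0.09 (SE; adjusted p = 0.889). Among the kinases, TYK2 differed by -0.16 ± 0.09, JAK1 by -0.08 ± 0.13 and JAK2 by 0.16 ± 0.26 (SE). Of the 7 tested inhibitors other than SOCS3, 2 were higher and 5 lower, and SOCS2 had the widest difference named here, at -0.65 ± 0.42 (SE; adjusted p = 0.853). Of the 16 tested STAT3 target genes 9 were higher and 7 lower, with a median difference of 0.02.

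Across tumours, the 8 tested of 11 listed inflammatory genes all had a positive r with IL6, with a median of 0.639 beside -0.006 over all tested genes, and a positive r with SOCS3, with a median of 0.684 beside 0.001. In the regression on IL6, 3 of the 8 passed, beside 1.61% of all tested probe sets called positive (2.80% in either direction): ZFP36, an RNA-binding protein that destabilises cytokine messages (r = 0.878, adjusted p = 0.00161), NFKBIZ, a co-activator of NF-kappa B (r = 0.749, adjusted p = 0.0203), and CCL2, a chemokine for monocytes (r = 0.670, adjusted p = 0.044). The other 5 did not pass, with r from 0.502 (TNF and NFKBIA) to 0.648 (ZC3H12A) and adjusted p-values from 0.0626 (CXCL8) to 0.232 (TNF). In the regression on SOCS3, 1 of the 8 passed, ZFP36 (adjusted p = 0.0428), beside 0.0506% of all tested probe sets called positive. CXCL8 (adjusted p = 0.079), CCL2 (0.0834) and PTGS2 (0.12) were among those that did not pass there. With LIFR all 8 had a negative r, with a median of -0.425. Since IL6 correlated negatively with LIFR, this is no separate result.

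Of the kinases and other STATs, 2 of 9 passed in the regression on IL6, beside 2.80% of all tested probe sets in either direction. JAK2, which transmits signals from gp130, was positive (r = 0.804, adjusted p = 0.0127). STAT4, a transcription factor of T and NK cells, was negative (r = -0.715, adjusted p = 0.0289), while IL6 had r = 0.0014 with the T and NK cell score. JAK2 also fell with LIFR (r = -0.670, adjusted p = 0.0327), and of the receptors IL11RA, the receptor for IL11, fell with LIFR (r = -0.622, adjusted p = 0.0476). JAK1 and TYK2 had coefficients of -0.041 and -0.264 with IL6. Of the 16 STAT3 target genes 11 had a positive r with IL6 (median 0.354, beside -0.006 over all tested genes). With SOCS3 11 were positive (median 0.431 beside 0.001), and with STAT3 itself 8 were (median 0.081 beside -0.023). Only HIF1A, a transcription factor of the response to low oxygen, passed in the regression on IL6 (r = 0.715, adjusted p = 0.0315). That was 1 of 16, beside 1.61% of all tested probe sets called positive, and JUNB (0.653), BCL6 (0.644) and ICAM1 (0.634) did not pass. The cyclin gene CCND1 rose with LIFR (r = 0.653, adjusted p = 0.038). In the regression on LIFR, 1 of 6 ligands and receptors, 1 of 9 kinases and other STATs and 1 of 16 STAT3 target genes thus passed. No gene of the other lists did, and 6.40% of all tested probe sets passed on LIFR. At that share these calls are no result about the pathway genes. In the regression on STAT3 level, 0 of the 46 tested pathway genes passed, where 0.233% of all tested probe sets did, a share at which none in 46 says nothing about these genes.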

How the data were processed

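RNA of 18 frozen canine osteosarcomas was hybridised to 1 Affymetrix canine array each. The values are deposited log2 signals of 43035 probe sets. MAS5 is the only tool in the submitters' processing notes, with no version. The normalization step, detection calls and scan batches are not given in the sources used here. Signals were recomputed as log2(signal + 16). Of the probe sets 175 were controls and were left out, and 25716 with a mean at or above the 40th percentile were tested. The array's annotation gave 1 symbol to 29254 probe sets, several to 439 and none to 13167, and 27680 were found in the dog RefSeq annotation.

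The ALP groups were compared with limma 3.58.1 (R 4.3.3; eBayes with trend, no covariate, Benjamini-Hochberg over all tested probe sets, threshold 0.05). Single members were also compared by an exact two-sided permutation test, and those below the filter by least squares. Pairs and marker scores were tested with 100000 permutations in NumPy 2.4.6. The scripts were tested on simulated data. The members and lists were chosen with earlier results of these data known. The regressions on each member, the coefficients within the sides of a gap, and the fits without the 2 tumours of high skeletal muscle genes were added after seeing the data. Named pathway genes were up to 4 per list with the smallest p, the receptor IL6R, and the kinases JAK1, JAK2 and TYK2. TNF, PIAS1 and the genes named by their regression on IL6, LIFR or SOCS3 passed a stated threshold or were named after their values were seen. Alternatives changed the offset, filter, scaling, moderation and covariates and left out arrays. The number of arrays limits the precision.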

Additional observations from a re-analysis of the deposited data

Results flagged for a closer look

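In 28 groups of 9 tumours, the 14 probe sets in both ALP groups, the highest and lowest values were compared with the rest, and 1 stood apart. LIF in increased ALP replicate 6 was 6.04, and the next tumour of its group was 5.83, a gap of 0.530 of the group's range, above Dixon's critical value for 9 samples. Chance gives such a value in about 1 of 20 groups. LIF lay below the filter on dim probe sets. The same tumour had the highest IL6 and SOCS3 levels and the largest difference between the GAPDH 3′ and 5′ probe sets (2.38, with 0.987 to 2.07 in the others).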

How the results depend on the processing

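Under all 33 alternatives to the comparison of ALP groups, 0 probe sets and 0 members passed in limma. The tissue numbers in the labels gave no clear sign of pairing. Correlations of same-numbered deviations ran from -0.164 to 0.270, with 4 of 9 above 0.1, and in 0 of 9 was the same number the best match. These values do not settle whether the numbers pair the tumours. With the number as a replicate block 0 passed in limma. The smallest adjusted p was 0.0682 over all probe sets and 0.290 for STAT3, at the third of its probe sets. The STAT3 and OSMR differences kept their sign under every alternative run. With the actin difference as covariate, the differences turned to -0.18 for IL6, -0.0235 for LIF, -0.0166 for OSM, -0.13 for IL6ST and -0.0094 for SOCS3. OSM also turned to -0.0143 under quantile normalization, -0.0380 with the GAPDH covariate and -0.0308 without increased ALP replicates 3 and 6, and LIFR to -0.0255 and -0.0949 at its probe sets without the 2 tumours of high skeletal muscle genes. Leaving out 1 array at a time, differences ran from -0.0882 to 0.0715 for IL11, -0.0031 to 0.0509 for LIF, -0.0463 to 0.0351 for OSM and -0.0149 to 0.15 for IL6ST. No member passed in these runs. IL6 ran from 0.38 (increased ALP replicate 6 left out) to 1.404 (normal ALP replicate 4), LIFR from 0.12 (increased ALP replicate 9) to 0.63 (increased ALP replicate 2) and SOCS3 from 0.03 (increased ALP replicate 6) to 0.20 (normal ALP replicate 4). In the same runs the pairs called numbered 3 to 7 (7 with normal ALP replicate 6 left out) and the marker relations 5 to 11 (8, 9 and 11 with normal ALP replicates 3, 6 and 7 left out in turn), while 4 marker relations were called without the 2 tumours of high skeletal muscle genes. The coefficient of LIF with SOCS3 ran from -0.346 to 0.318 and was -0.406 without increased ALP replicates 3 and 6. IL6 with LIFR lost its call at an offset of 64 (r = -0.627, adjusted p = 0.0665), under quantile normalization (adjusted p = 0.05), under scaling to the 75th percentile (0.0545) and without the 2 tumours of high skeletal muscle genes (0.0774). IL11 with SOCS3 gained one by rank (rho = 0.645, adjusted p = 0.0409) and when normal ALP replicate 9 was left out (0.0477). Against 1579 probe sets with an unadjusted p under 0.05, single arrays left out gave 1155 (increased ALP replicate 6) to 2243 (increased ALP replicate 4), and there were 848 with the GAPDH and 889 with the actin covariate, 849 without increased ALP replicates 3 and 6, and 2617 without the filter. The cause of these shifts was not tested.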
